A study of Homo sapiens with 8 samples.

Results

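Transforming growth factor beta (TGF-beta) signalling was examined in H3122 cells, a human lung adenocarcinoma line driven by the EML4-ALK fusion kinase, through 9 genes: the ligand genes TGFB1, TGFB2 and INHBA, the receptor genes TGFBR1 and TGFBR2, the intracellular genes SMAD3, SMAD7 and SKIL, and the target gene TGFBI. The members were found by their Ensembl identifier, and 9 of 9 were among the 43869 genes with values. The 127 regions of histone H3 lysine 27 acetylation (H3K27ac, a mark of active promoters and enhancers) that lay within 20 kb of a member were described with them, out of 126470 such peaks. Treatment-naive H3122 cells were compared with 3 derivative populations that had become resistant to inhibitors of the ALK kinase by gradual escalation of the drug. The erCriz0 population was kept in 0.5 µM crizotinib, erAlec0 in 2 µM alectinib and erLor0 in 2 µM lorlatinib. All 4 lines come from H3122, grew in RPMI medium with serum, and were treated with DMSO as vehicle. Each population gave 1 RNA library, made after 48 h without inhibitor, and 1 H3K27ac library. A population stands for 1 course of selection, and no difference between lines has a replicate check or a p-value. The other 4 of the 8 samples (erCriz1, erLor1, a short lorlatinib treatment labelled Lor 2w and pooled input DNA) were not analysed here.

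TGF-beta ligands are secreted in a latent form and, once released, bind a complex of the type II receptor TGFBR2 and the type I receptor TGFBR1. The activated type I receptor phosphorylates SMAD2 and SMAD3, which enter the nucleus with SMAD4 and bind DNA together with other transcription factors such as AP-1. SMAD7 and SKIL are themselves targets and restrain the pathway, SMAD7 at the receptor and SKIL at the SMAD complex. In carcinoma cells of the lung the pathway is known for growth restraint, for production of extracellular matrix and for the epithelial to mesenchymal transition.

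Values are rlog values, the log2 of normalized read counts drawn toward the mean of a feature where reads are few, so that changes of weak genes and peaks are understated. Because rlog values are not counts, the depth of each library is unknown. Each resistant line was set against naive cells by subtracting rlog values, and a difference (here, a change) of at least 1, or of -1 or lower, was counted as up or down. Where 3 changes, counts or medians follow each other without names, they stand for erCriz0, erAlec0 and erLor0 in this order. A gene was called expressed where any of its 4 rlog values reached 4.64, the log2 of 25, and 12701 genes did. The median peak level was 4.12 in naive cells against 4.03 (erCriz0), 4.13 (erAlec0) and 4.02 (erLor0), a shift of -0.10 in erLor0. Of 9 lung epithelial marker genes, EPCAM, CDH1, NKX2-1 and 4 keratin genes lay between 8.67 and 15.17 in every line, while NAPSA (3.53 to 4.23) and SFTPB (1.64 to 2.03) were low. The 4 fibroblast markers with values lay between 0.51 and 2.61, and the 6 leukocyte markers between -1.74 and 4.53, with PTPRC, which defines leukocytes, listed at 0. The endothelial marker CDH5 changed by 1.68 in erAlec0 and 1.54 in erLor0, KDR changed by -1.15 in erCriz0, and PECAM1 and VWF lay between -0.13 and 0.19, and the part of the cells behind these markers in the results was not tested.

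RNA of the members ranged from abundant SMAD3 to weak INHBA. Per kb of exon, the order of rlog in naive cells was SMAD3 (9.41), TGFB1 (9.16), SKIL (7.85), TGFBI (7.35), TGFBR1 (6.62), SMAD7 (5.66), TGFBR2 (4.35), TGFB2 (1.75) and INHBA (0.19). The order was the same in erAlec0 and erLor0, and in erCriz0 only TGFBR2 (5.45) and SMAD7 (5.19) changed places. With 1 library per line, neighbours in this order, such as SMAD3 and TGFB1 in naive cells, cannot be separated beyond an error.

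Only 2 of the 27 RNA changes of the members passed the limit, both in erCriz0, where TGFBR2 rose and TGFB1 fell. In bulk RNA, a change in all cells and a change in the share of cells that make an RNA cannot be told apart. In erCriz0 2.65% of expressed genes were up and 1.65% down, in erAlec0 2.46% and 2.07%, and in erLor0 1.10% and 0.740%. A count of 1 member each way in 1 line is too small to read against these shares. The median change of the 9 members was -0.06 (erCriz0), 0.14 (erAlec0) and -0.10 (erLor0), beside -0.017, 0.0020 and -0.0043 over expressed genes. TGFB2, INHBA and TGFBR2 lay above naive cells in all 3 lines, TGFB1, SMAD7 and TGFBI lay below in all 3, and TGFBR1, SMAD3 and SKIL stayed within 0.25 of naive cells. Of the 9 genes 8 counted as expressed, and TGFB2 did so only through erCriz0.

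**Figure D1:**
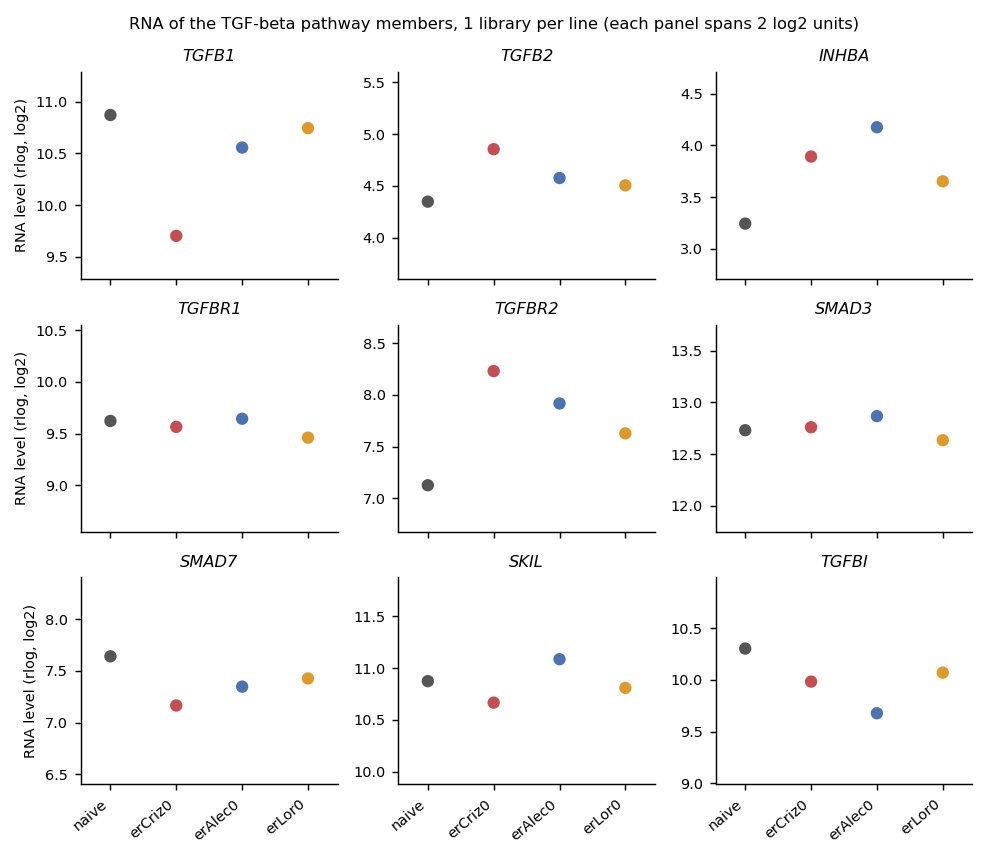
RNA level (rlog, a log2 scale) of the 9 members in naive, erCriz0, erAlec0 and erLor0 cells, with 1 point per library and the same span of 2 log2 units in each panel. TGFB1 is lowest in erCriz0 (9.70), TGFBR2 is highest there (8.23), and TGFBR1 and SMAD3 are nearly flat.

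The 127 peaks of the members moved in opposite directions at different genes. In erAlec0 17 were up and 18 down (13.4% and 14.2% of the 127), in erLor0 7 and 12 (5.51% and 9.45%), and in erCriz0 3 and 4 (2.36% and 3.15%). Of all peaks, 14.1% were up and 9.41% down in erAlec0, 7.45% and 8.82% in erLor0, and 7.00% and 5.94% in erCriz0. Single genes supplied most of the calls in erAlec0, where 12 of the 17 peaks up belonged to TGFB2, and 16 of the 18 down belonged to SMAD3 and SMAD7. Peaks of 1 gene lie side by side and are not independent of each other. Of the 127, 44 were paired with 1 gene only, and 96 had a value of 3.91 (the log2 of 15) or above in some library.

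Peaks over the start of a gene stood apart from the rest. The 9 start peaks of the members were higher than in naive cells at 8 (erCriz0), 7 (erAlec0) and 8 (erLor0) genes, with medians of 0.49, 0.57 and 0.71. This was shared with the genome, where 86.1%, 74.7% and 87.4% of 10130 start peaks of expressed genes were higher in erCriz0, erAlec0 and erLor0, with medians of 0.35, 0.27 and 0.43. The other 118 member peaks had medians of -0.28, -0.44 and -0.45, beside -0.05, -0.02 and -0.04 for all peaks at no such start. The sets are not fully alike, since a peak of the 118 can lie over the start of a neighbouring gene. Genes also differed, with medians over all paired peaks in erAlec0 from -0.81 at SMAD3 to 1.39 at TGFB2.

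**Figure D2:**
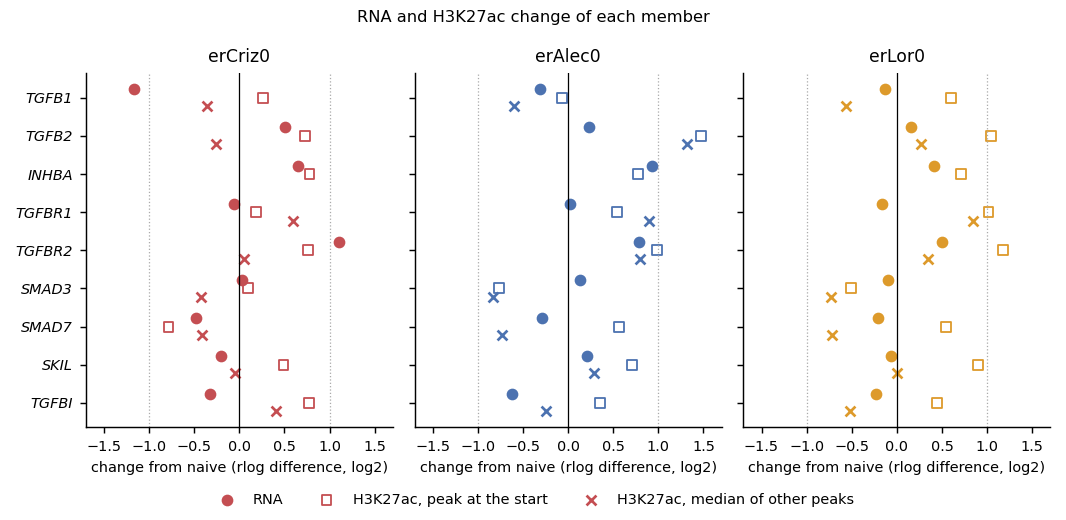
Change from naive cells (rlog difference, log2) of each member in erCriz0, erAlec0 and erLor0, with RNA as filled circles, the H3K27ac peak at the start as open squares and the median of its other paired peaks as crosses (INHBA has none), 1 library per line. Dotted lines mark changes of 1 and -1. In erCriz0 the RNA of TGFB1 lies at -1.17 and its start peak at 0.26, and the SMAD3 crosses lie below 0 in every line while its RNA stays near 0.

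TGFB1 encodes the main TGF-beta ligand. TGFB1 (ENSG00000105329.10, minus strand of chromosome 19 from 41301587 to 41353922 of hg38) had an rlog of 10.87 in naive cells against 9.70 (erCriz0), 10.56 (erAlec0) and 10.74 (erLor0). Its RNA thus fell by 1.17 in erCriz0, to a ratio of 0.445 on the rlog scale, and only 0.819% of expressed genes had a lower change there. In erAlec0 it changed by -0.31 and in erLor0 by -0.13. HNRNPUL1, which overlaps TGFB1 on the opposite strand and is more abundant (12.71 in naive cells), changed by -0.49, -0.24 and -0.20. The authors checked the strand of the libraries with RSeQC, but the setting used in the counting is not given in the sources used here, and the part of HNRNPUL1 reads in the TGFB1 value was not tested.

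The H3K27ac peaks of TGFB1 did not follow this order. None of the 20 was down by 1 in erCriz0, with a median of -0.35, and 13 were lower. In erAlec0 all 20 were lower, with a median of -0.57, and 2 were down. In erLor0 16 were lower, with a median of -0.51, and 2 were down. The 1128 other peaks within 5 Mb had medians of -0.07, -0.30 and 0.02. Of these, 12.9% were down in erAlec0 and 5.14% in erLor0. The number of TGFB1 peaks down in erAlec0 was thus not above the share of its surroundings. In erLor0 2 of 20 lay above that share, a count too small to read. The broadest peak within the gene (chr19:41319876-41329859, intronic) had an rlog of 10.86 in naive cells against 11.29 (erCriz0), 9.33 (erAlec0) and 9.98 (erLor0), a change of 0.43, -1.53 and -0.89. It was high in the line with the lowest TGFB1 RNA and lowest in erAlec0. It lies within 20 kb of 4 genes, so its change cannot be assigned to TGFB1. The start peak (chr19:41351480-41355138) changed by 0.26, -0.06 and 0.60. The promoter is shown because it lies inside that acetylated start peak, is built of G and C for 77.5% of its letters, and holds neither motif searched. The motifs were TGANTCA, bound by AP-1, and CAGAC, bound by SMAD proteins, on both strands, and capitals mark a match here and in later sequences. The 2 motifs can overlap by the letters CA. Of 35116 RefSeq promoters cut to the same 240 bases, 6.32% held TGANTCA and 36.6% held CAGAC. RefSeq promoters of build GRCh38.p14 matched 9 of 9 members. The sequence ends at the base before the gene's start, chr19:41353923-41354162 on the minus strand.
TGFB1 promoter: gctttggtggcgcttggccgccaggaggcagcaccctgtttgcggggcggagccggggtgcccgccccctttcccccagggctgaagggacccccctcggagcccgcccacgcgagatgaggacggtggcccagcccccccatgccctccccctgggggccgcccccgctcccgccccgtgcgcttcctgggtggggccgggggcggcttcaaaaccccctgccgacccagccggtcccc

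TGFB2 encodes another isoform of the ligand. TGFB2 (ENSG00000092969.12, plus strand of chromosome 1 from 218345336 to 218444619) was weak in every line, with an rlog of 4.35 in naive cells against 4.85 (erCriz0), 4.58 (erAlec0) and 4.51 (erLor0). Its RNA changed by 0.51, 0.23 and 0.16, none past the limit. The antisense gene TGFB2-AS1 was listed at 0 in all 4 libraries.

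H3K27ac around TGFB2 changed by more than its RNA on the rlog scale in erAlec0. There 12 of its 19 peaks were up and 18 were higher than in naive cells, with a median change of 1.39. In the surrounding 5 Mb on either side, the median of 286 further peaks was 0.18 in erAlec0, and 19.9% were up. In erLor0 3 peaks were up with a median of 0.40, and in erCriz0 0 were up with a median of -0.26. Just 9 of the 19 peaks reached the peak minimum of 3.91. Of these, 3 reached it in naive cells, and the other 6 did so in erAlec0 and in no further line, so that they passed the minimum through the line where they were high. The largest fall, -0.83, was at a weak intronic peak in erCriz0 (chr1:218375828-218376102). RNA was highest in erCriz0, the line with the lowest peak median.

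The largest TGFB2 peak lies in an intron (chr1:218377605-218381989) and is paired with TGFB2 alone. It had an rlog of 5.87 in naive cells against 5.45 (erCriz0), 8.41 (erAlec0) and 7.00 (erLor0), a rise of 2.54 in erAlec0 and 1.13 in erLor0 and a change of -0.41 in erCriz0. In erAlec0 99.5% of all peaks had a lower change. The start peak (chr1:218345314-218346311) rose by 1.47 in erAlec0 and 1.04 in erLor0 and changed by 0.72 in erCriz0. The intronic peak held 11 matches to CAGAC, or 2.51 per kb beside 2.18 over all peaks, and 0 to TGANTCA, which 81.4% of 5596 peaks of 4000 to 7000 bases held at least once. Shown are the promoter, since its last bases lie in the start peak that rose, and a part of the intronic peak. The promoter ends at the base before the start of the gene and overlaps an exon of TGFB2-AS1 (chr1:218345096-218345335, plus strand). The part of the peak is a stretch of 200 bases outside exons (chr1:218378797-218378996). It was picked by the most matches to TGANTCA and, at equal numbers, by the most to CAGAC. Stretches of later peaks were picked by the same rule.
TGFB2 promoter: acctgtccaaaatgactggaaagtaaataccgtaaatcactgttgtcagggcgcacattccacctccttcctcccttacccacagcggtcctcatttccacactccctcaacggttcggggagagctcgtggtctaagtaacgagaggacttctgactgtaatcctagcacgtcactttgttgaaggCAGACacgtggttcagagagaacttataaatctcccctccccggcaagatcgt
TGFB2 intronic peak: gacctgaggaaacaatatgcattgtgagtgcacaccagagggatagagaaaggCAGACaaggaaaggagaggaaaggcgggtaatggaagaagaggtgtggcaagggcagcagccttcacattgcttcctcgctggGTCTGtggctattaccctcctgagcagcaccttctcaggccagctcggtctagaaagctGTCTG

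INHBA encodes the subunit of activin A, a related ligand that signals through SMAD2 and SMAD3 by its own receptors. INHBA (ENSG00000122641.11, minus strand of chromosome 7 from 41667168 to 41705834) was below the limit for expressed genes in all 4 libraries, with an rlog of 3.24 in naive cells against 3.89 (erCriz0), 4.18 (erAlec0) and 3.65 (erLor0). It changed by 0.65, 0.93 and 0.41, at levels where rlog draws changes toward 0. Its only peak (chr7:41704666-41706122), over the 5′ end of the gene, had an rlog of 6.73 in naive cells against 7.51 (erCriz0), 7.50 (erAlec0) and 7.43 (erLor0). The 3 resistant lines therefore lay within 0.71 to 0.78 above naive cells. The other 330 peaks within 5 Mb had medians of -0.06, 0.00 and -0.05. Start peaks of expressed genes, the peaks most like it in place, had higher medians of 0.35, 0.27 and 0.43.

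TGFBR2 encodes the type II receptor, which binds the ligand first. TGFBR2 (ENSG00000163513.18, plus strand of chromosome 3 from 30606502 to 30694142) had an rlog of 7.13 in naive cells against 8.23 (erCriz0), 7.92 (erAlec0) and 7.63 (erLor0). All 3 resistant lines were above naive cells. Its RNA rose by 1.10 in erCriz0, a ratio of 2.15, and changed by 0.79 in erAlec0 (1.73) and 0.50 in erLor0 (1.42). These changes were above those of 97.8%, 95.7% and 94.0% of expressed genes. The median of 27 other expressed genes within 5 Mb was 0.07, 0.06 and 0.12.

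The start peak of TGFBR2 (chr3:30605693-30607722) had an rlog of 7.00 in naive cells against 7.76 (erCriz0), 7.99 (erAlec0) and 8.17 (erLor0), a change of 0.76, 0.99 and 1.17. It was higher in all 3 resistant lines, but in the reverse order of the RNA. Of 13 peaks, 1, 4 and 3 were up. In erAlec0 30.7% of the 264 other peaks within 5 Mb were also up, so 4 of 13 was close to the share of its surroundings. In erCriz0 4.55% and in erLor0 11.4% of these other peaks were up, beside 1 and 3 of the 13. The largest rise over the 3 lines was 1.79 in erAlec0, at a peak of 488 bases over an exon (chr3:30632762-30633249), whose rlog was 2.57 in naive and 4.36 in erAlec0 cells. The largest fall, -0.54, was at an intronic peak in erCriz0 (chr3:30664894-30665123).

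A broad intronic peak of TGFBR2 (chr3:30654124-30659545) behaved otherwise and is paired with TGFBR2 alone. Its rlog was 7.41 in naive cells against 8.73 (erCriz0), 7.40 (erAlec0) and 7.10 (erLor0), so it rose by 1.32 in erCriz0 and changed by -0.01 and -0.31 in the others. In erCriz0 97.0% of all peaks had a lower change. This peak was singled out after its values were seen. It held 7 matches to TGANTCA, or 1.29 per kb beside 0.356 over all peaks, and 17 to CAGAC, or 3.14 per kb. The promoter (chr3:30606116-30606355, plus strand, ending at the base before the RefSeq start) lies inside the start peak and held neither motif. It is shown beside a stretch of 200 bases of the intronic peak (chr3:30659275-30659474), picked first by its matches to TGANTCA.
TGFBR2 promoter: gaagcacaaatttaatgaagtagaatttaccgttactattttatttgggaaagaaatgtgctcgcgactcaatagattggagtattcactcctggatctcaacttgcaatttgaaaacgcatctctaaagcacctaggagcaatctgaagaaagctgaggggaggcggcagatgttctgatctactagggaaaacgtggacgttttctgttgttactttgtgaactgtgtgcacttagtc
TGFBR2 intronic peak: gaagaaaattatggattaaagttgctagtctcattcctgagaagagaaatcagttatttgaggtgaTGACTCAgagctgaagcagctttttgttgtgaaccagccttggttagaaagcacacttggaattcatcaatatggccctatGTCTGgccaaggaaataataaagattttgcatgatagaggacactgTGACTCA

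TGFBR1 encodes the type I receptor, the kinase that phosphorylates SMAD proteins. TGFBR1 (ENSG00000106799.13, plus strand of chromosome 9 from 99104038 to 99154192) had an rlog of 9.62 in naive cells against 9.57 (erCriz0), 9.64 (erAlec0) and 9.46 (erLor0), a span of 0.18. Its 2 peaks were higher in every resistant line. The start peak (chr9:99104153-99105218) had an rlog of 4.67 in naive cells against 4.85 (erCriz0), 5.21 (erAlec0) and 5.68 (erLor0) and rose by 1.01 in erLor0. The intronic peak just after it (chr9:99105468-99106172) changed by 0.59, 0.89 and 0.84. The 461 other peaks within 5 Mb had medians of -0.02, 0.30 and 0.03. Start peaks of expressed genes had medians of 0.35, 0.27 and 0.43, beside 0.18, 0.54 and 1.01 at the TGFBR1 start peak. The 2 receptors of the complex therefore differed in RNA, TGFBR2 by 1.10 and TGFBR1 by -0.06 in erCriz0.

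**Figure D3:**
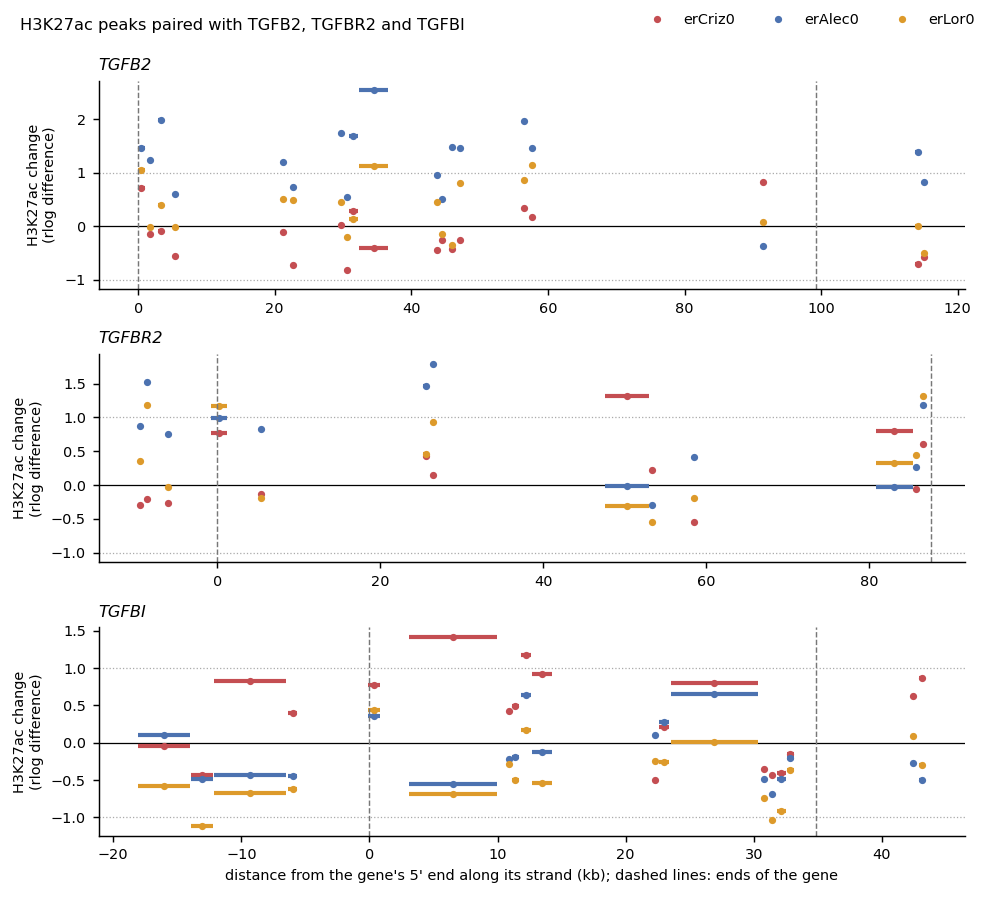
H3K27ac change from naive cells (rlog difference, log2) of each peak paired with TGFB2, TGFBR2 and TGFBI, against its distance in kb from the 5′ end of the gene along its strand. Horizontal bars span the peaks, dots mark their centres, colours stand for erCriz0, erAlec0 and erLor0, and dashed lines mark the ends of the gene. In erAlec0 18 of 19 TGFB2 peaks lie above 0, whereas the highest points of TGFBR2 and TGFBI in erCriz0 are single broad peaks at 1.32 and 1.42.

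SMAD3 encodes the SMAD protein that the receptor activates and that binds DNA. SMAD3 (ENSG00000166949.16, plus strand of chromosome 15 from 67063763 to 67195169) was the most abundant member, with an rlog of 12.73 in naive cells against 12.76 (erCriz0), 12.87 (erAlec0) and 12.64 (erLor0). Its RNA changes of 0.03, 0.14 and -0.10 were small, and that in erCriz0 became -0.08 after quantile normalization of the libraries.

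Most H3K27ac peaks of SMAD3 were lower in the resistant lines, but the 2 broadest changed by 0.09 and 0.16 in erCriz0. Of its 29 peaks, 24 (erCriz0), 28 (erAlec0) and 28 (erLor0) were lower, with medians of -0.42, -0.81 and -0.73. The 629 other peaks within 5 Mb had medians of -0.06, 0.50 and 0.22. The number down was 2, 8 and 3, and 0 were up, while 4.13% of the surrounding peaks were down and 24.2% up in erAlec0. Each of the 29 lay within 20 kb of 1 other gene as well.

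The gene is covered by 2 very broad peaks, which ranked 8 and 14 by length among all 126470. The one of 53486 bases over the start (chr15:67058661-67112146) had an rlog of 13.36 in naive cells against 13.46 (erCriz0), 12.60 (erAlec0) and 12.86 (erLor0), a change of 0.09, -0.76 and -0.51. The one of 43419 bases after it (chr15:67113284-67156702) changed by 0.16, -0.20 and -0.27. After these broad peaks 19 shorter ones followed, with medians of -0.43, -0.81 and -0.80. The 8 peaks upstream of the gene had medians of -0.55, -0.93 and -0.48. Among the 19 were the only 2 of the 127 member peaks past the limit in all 3 lines. The larger of these (chr15:67191137-67193782, over an exon) had an rlog of 7.44 in naive cells against 6.34 (erCriz0), 5.89 (erAlec0) and 6.18 (erLor0) and changed by -1.11, -1.56 and -1.27. Its neighbour (chr15:67190340-67190715) changed by -1.04, -1.18 and -1.18. The highest change of any SMAD3 peak was 0.27, in erCriz0 at chr15:67197962-67198263.

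SMAD7 encodes an inhibitory SMAD that blocks the type I receptor and is induced by the pathway. SMAD7 (ENSG00000101665.9, minus strand of chromosome 18 from 48919853 to 48952052) had an rlog of 7.64 in naive cells against 7.17 (erCriz0), 7.35 (erAlec0) and 7.43 (erLor0), a change of -0.48, -0.29 and -0.21. It was below naive cells in all 3 lines and past the limit in none. Of its 18 peaks 2 (erCriz0), 8 (erAlec0) and 5 (erLor0) were down, and 0 were up. Their medians were -0.42, -0.73 and -0.66, beside 0.48, 0.16 and 0.15 for 237 other peaks within 5 Mb, of which 3.80%, 7.17% and 8.02% were down.

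The start of SMAD7 went against the rest of the gene in 2 lines. Its start peak (chr18:48944029-48952079) had an rlog of 9.69 in naive cells against 8.91 (erCriz0), 10.26 (erAlec0) and 10.24 (erLor0), and changed by -0.78, 0.57 and 0.54. In erCriz0 it was the only start peak of the 9 members below naive cells. A peak just upstream (chr18:48952180-48953343) had the highest change of the gene, 0.98 in erLor0, beside 0.48 and 0.67. The 6 intronic peaks lay lower in every line, with medians of -0.40, -1.11 and -1.15. The largest fall was upstream (chr18:48960880-48961607), where an rlog of 4.33 in naive became 3.58 (erCriz0), 2.67 (erAlec0) and 2.94 (erLor0), a change of -0.75, -1.67 and -1.39.

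SKIL encodes a corepressor of SMAD complexes that is itself induced by the pathway. SKIL (ENSG00000136603.14, plus strand of chromosome 3 from 170357678 to 170396835) had an rlog of 10.87 in naive cells against 10.67 (erCriz0), 11.09 (erAlec0) and 10.81 (erLor0), a change of -0.21, 0.21 and -0.07. Its start peak (chr3:170357259-170359035) had an rlog of 7.41 in naive cells against 7.90 (erCriz0), 8.12 (erAlec0) and 8.30 (erLor0). The resistant lines were above naive cells there by 0.49, 0.71 and 0.89. Of 6 peaks 1 was up, by 1.19 in erAlec0 at a peak of 235 bases just upstream (chr3:170356968-170357202). The largest fall, -0.87 in erCriz0, was at the last of its peaks (chr3:170360896-170361328). Of the 353 other peaks within 5 Mb of SKIL, 22.1% were up in erAlec0.

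**Figure D4:**
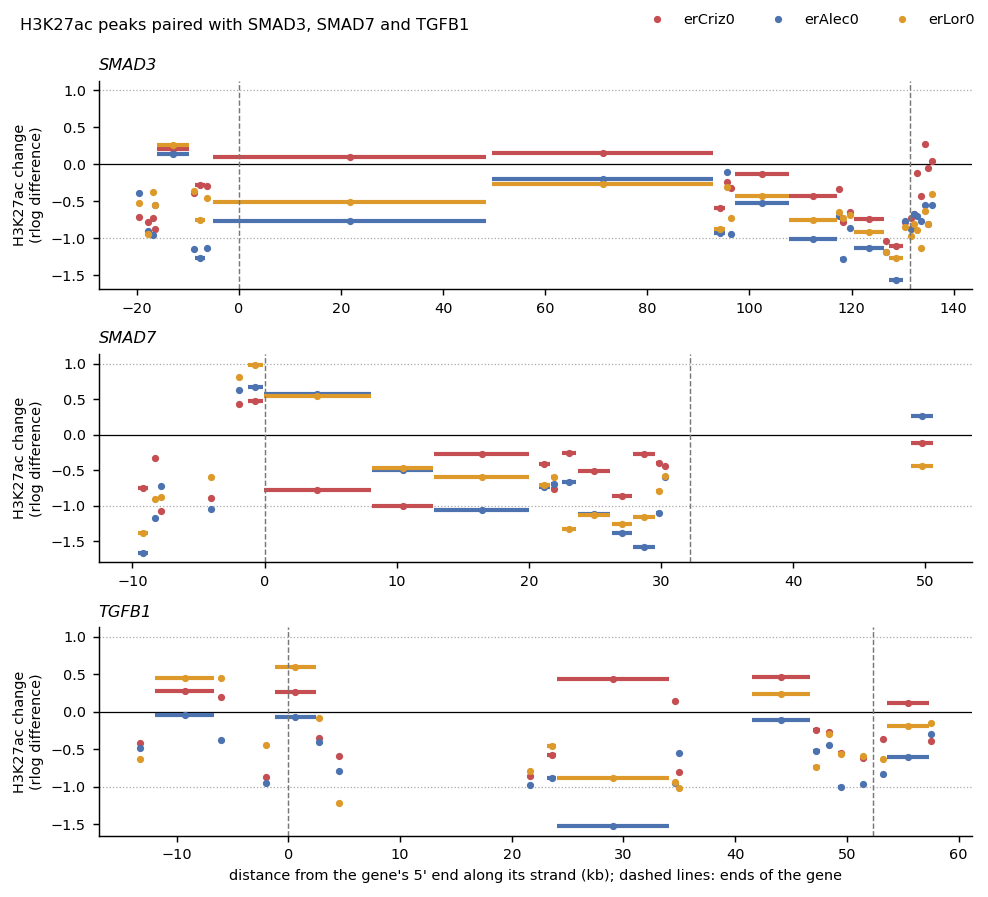
H3K27ac change from naive cells (rlog difference, log2) of each peak paired with SMAD3, SMAD7 and TGFB1, against its distance in kb from the 5′ end of the gene along its strand, drawn as for TGFB2. At SMAD3 the 19 peaks after the 2 broad ones lie below 0 in erAlec0 and erLor0, and at SMAD7 the peaks at and just before the start lie above 0 in those lines while the intronic peaks lie below.

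TGFBI encodes a secreted matrix protein and is a target gene of TGF-beta. TGFBI (ENSG00000120708.17, plus strand of chromosome 5 from 136028988 to 136063818) had an rlog of 10.30 in naive cells against 9.98 (erCriz0), 9.68 (erAlec0) and 10.07 (erLor0), a change of -0.32, -0.63 and -0.23. All 3 resistant lines were lower, none past the limit. Its 19 peaks had medians of 0.43, -0.22 and -0.50, with 2 up in erCriz0 and 2 down in erLor0. The 747 other peaks within 5 Mb had medians of 0.00, -0.18 and 0. Of these, 8.30% were up in erCriz0 and 9.64% down in erLor0, so both counts were close to the share of the surroundings. At TGFBI itself, H3K27ac was higher at 12 of 19 peaks in erCriz0, where RNA was lower than in naive cells.

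The broad peak after the start of TGFBI (chr5:136032105-136038965) had an rlog of 7.80 in naive cells against 9.22 (erCriz0), 7.24 (erAlec0) and 7.12 (erLor0). It rose by 1.42 in erCriz0, above 97.7% of all peaks, and changed by -0.56 and -0.68 in the others, the same order as the broad intronic peak of TGFBR2. The start peak (chr5:136028883-136029789) changed by 0.78, 0.35 and 0.44. The largest fall, -1.12 in erLor0, was upstream (chr5:136015078-136016815). The broad peak held 1 match to TGANTCA, or 0.146 per kb, and 17 to CAGAC, or 2.48 per kb. Shown is a stretch of 200 bases of this peak (chr5:136032490-136032689), picked first by matches to TGANTCA, so that it holds the only 1 of the peak. That this stretch and that of TGFBR2 both hold TGANTCA therefore follows from the rule.
TGFBI peak: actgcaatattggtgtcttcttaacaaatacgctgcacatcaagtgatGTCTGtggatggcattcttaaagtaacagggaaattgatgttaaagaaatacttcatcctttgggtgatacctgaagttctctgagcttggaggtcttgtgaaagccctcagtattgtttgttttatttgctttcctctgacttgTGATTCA

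The rest of the pathway was described by a list of 103 genes that includes the members, of which 101 had values and LRRC32 and CDKN2B were not analysed here. In erCriz0 9 genes were up and 7 down, whereas erAlec0 had 7 and 3, and erLor0 5 and 2. Among the 83 expressed genes of the list, 10.8%, 8.43% and 6.02% were up and 8.43%, 3.61% and 2.41% down, beside 2.65%, 2.46% and 1.10% up and 1.65%, 2.07% and 0.740% down of all expressed genes. The list was chosen with earlier results of these data known. Of the genes up, NOG, GREM1, FST, MMP2 and IL11 were below the limit for expressed genes in naive cells. They counted as expressed only through resistant lines, so the shares up cannot be read as a result about the list. The medians of the 101 were 0.08, 0.20 and 0.10, beside the -0.017, 0.0020 and -0.0043 over expressed genes. No other receptor passed the limit in any line, and the changes of these 11 genes over the 3 lines lay between -0.51 and 0.67. Of 11 other SMAD genes and cofactors only TRIM33, a ubiquitin ligase that acts on SMAD4, passed it, by 1.21 in erLor0. There its 33 paired peaks had a median change of 1.10, while the 777 other peaks within 5 Mb of TRIM33 had a median of 1.29 and the 59 other expressed genes there one of 0.33. The part of a change of the whole region in the TRIM33 value was not tested.

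Most of the 12 other ligand genes, 8 of them expressed, stayed between the limits in every line. The erCriz0 and erAlec0 lines each had 2 down and 0 up, while erLor0 had 0 down and 1 up. Values above naive cells were seen for 3 (erCriz0), 5 (erAlec0) and 5 (erLor0) of the 12. Counts this small cannot be read as a result about the group. BMP7, a ligand of the bone morphogenetic branch, had an rlog of 7.12 in naive cells against 5.22 (erCriz0), 5.71 (erAlec0) and 6.97 (erLor0) and fell by 1.89 and 1.40 in the first 2 resistant lines. BMP2 fell by 1.26 in erCriz0, and INHBE, an activin subunit, fell by 1.83 in erAlec0. INHBB, which encodes the subunit of activin B, rose by 1.01 in erLor0.

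Genes that hold or release latent TGF-beta changed in both directions. LTBP1, a latent TGF-beta binding protein of the matrix, had an rlog of 6.94 in naive cells against 8.61 (erCriz0), 7.98 (erAlec0) and 7.77 (erLor0), and rose by 1.67 and 1.04 in the first 2 resistant lines, with 0.84 in erLor0. Its relative LTBP3 fell by 1.21 in erCriz0, the line in which TGFB1 fell. MMP14, a membrane-bound protease that can release latent TGF-beta, rose by 1.23 in erLor0, with 0.69 and 0.86 in erCriz0 and erAlec0. Of the 12 measured genes of this group, 7, 11 and 9 had higher values than naive cells, beside 47.9%, 50.3% and 49.4% of all expressed genes.

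Of the 18 inhibitors and feedback genes, 3 (erCriz0), 1 (erAlec0) and 0 (erLor0) were up, and 0 were down in any line. Of all expressed genes, 2.65%, 2.46% and 1.10% were up and 1.65%, 2.07% and 0.740% down. At such shares, 0 down among 18 genes cannot be read as a result about the group. The 3 genes up in erCriz0 encode secreted antagonists. NOG, which encodes the BMP antagonist noggin, had an rlog of 4.07 in naive cells against 6.46 (erCriz0), 3.61 (erAlec0) and 3.92 (erLor0) and rose by 2.39 in erCriz0. GREM1, a further BMP antagonist, rose by 2.13 and 1.89 in the erCriz0 and erAlec0 lines and changed by 0.38 in erLor0. FST, which encodes the activin antagonist follistatin, rose by 1.28 in erCriz0 and changed by 0.82 and 0.50 in erAlec0 and erLor0. Each of the 3 was below the limit for expressed genes in naive cells and passed it only through resistant lines.

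Of 28 other target genes with values, 15 (erCriz0), 20 (erAlec0) and 19 (erLor0) were above naive cells, beside the 47.9%, 50.3% and 49.4% of expressed genes, with medians of 0.09, 0.43 and 0.13. In erCriz0 4 of 28 were up (TGM2, LOXL2, MMP2 and FN1) and 3 down (ID2, ID3 and IGFBP3), in erAlec0 5 were up (IL11, COL4A1, LOXL2, CCN1 and ITGA5) and 1 down (IGFBP3), and in erLor0 2 were up (LOXL2 and PDGFB) and 2 down (IGFBP3 and TGM2). LOXL2, a crosslinking enzyme of the matrix, had an rlog of 5.66 in naive cells against 7.67 (erCriz0), 6.82 (erAlec0) and 6.71 (erLor0) and rose by 2.01, 1.16 and 1.05. IGFBP3, a carrier of insulin-like growth factors, fell in every line from 10.03 in naive cells, with changes of -1.10, -2.36 and -2.72. These were the only 2 genes of the list past the limit in all 3 lines.

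Matrix and adhesion genes were among those that rose. FN1, which encodes fibronectin, rose by 1.35 in erCriz0, and MMP2, a matrix protease, by 1.49 there from 3.40 in naive cells, a level below the limit for expressed genes. In erAlec0 COL4A1, a basement membrane collagen, rose by 1.48, the matricellular gene CCN1 by 1.11, and ITGA5, the fibronectin receptor subunit, by 1.02. The cytokine gene IL11 rose by 2.38 in erAlec0 from 3.66 in naive cells, also below that limit. PDGFB, a growth factor gene, rose by 1.01 in erLor0. ID2 and ID3, targets of the BMP branch, fell by 1.22 and 1.30 in erCriz0.

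**Figure D5:**
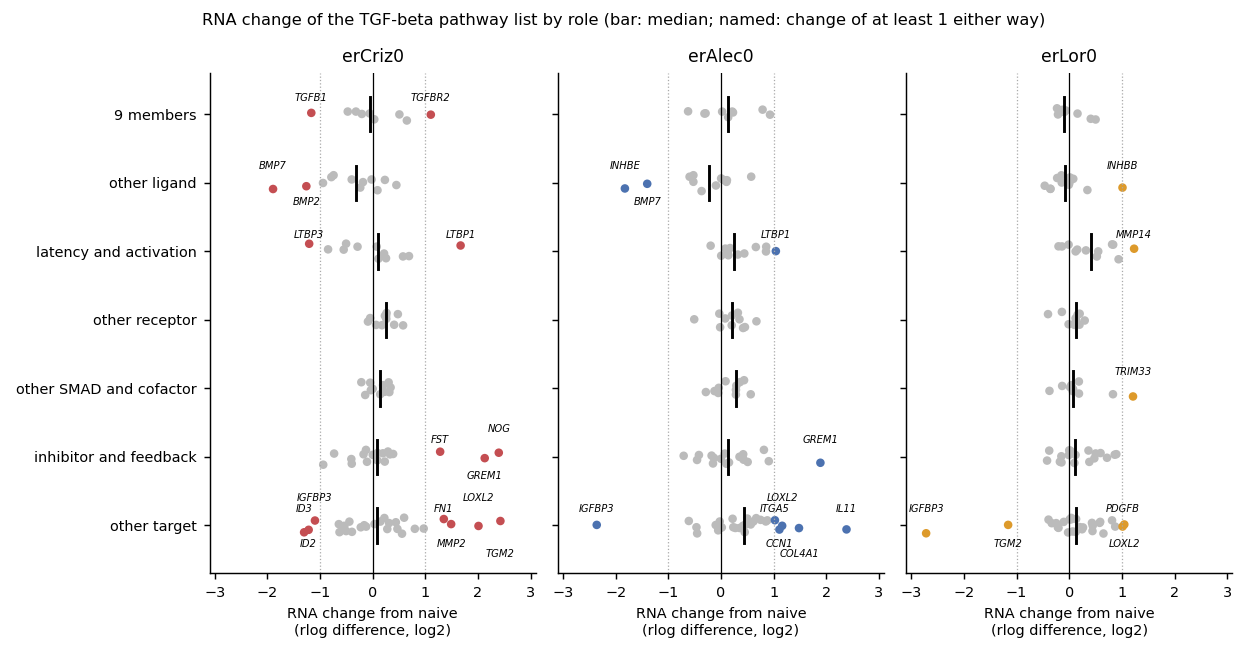
RNA change from naive cells (rlog difference, log2) of the 101 pathway genes with values, by role, in erCriz0, erAlec0 and erLor0, with 1 point per gene, a bar at the median of each role and names at genes past the dotted lines at 1 and -1. No other receptor is named in any line, inhibitors are named on the right of 0 only, and IGFBP3 lies farthest to the left in erAlec0 (-2.36) and erLor0 (-2.72).

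For the 2 members past the limit, the genes whose 3 RNA changes were nearest by Euclidean distance over the 4 libraries were sought among expressed genes. Nearest to TGFB1 were RNF208 (distance 0.061, changes of -1.14, -0.27 and -0.16), NECAB3 (0.132) and RAB40C (0.135). Nearest to TGFBR2 were NMNAT2 (0.122, changes of 0.99, 0.81 and 0.55), NT5E (0.128) and SIAE (0.140). None of the 6 belongs to the pathway list.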

How the data were processed

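The deposited table pairs every H3K27ac peak with every gene within 20 kb. Its values are log2 values: the authors counted reads over 4 libraries of each kind and transformed the counts with the rlog function of DESeq2. RNA reads were realigned by the authors to hg38 with HISAT2 and counted with HTSeq-count. H3K27ac reads were aligned with BWA, duplicates were removed, a mapping quality of 25 was required, and MACS2 peaks (q of 0.05) of 4 samples were merged and counted with featureCounts. Versions are not given in the sources used here. Columns with the authors' own correlations, p-values and adjusted p-values were not used. Of the columns of per-sample values 0 were left unmapped.

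Members and lists were chosen with earlier results of these data known. With 1 library per line and assay, no test was run, and changes of at least 1 or of -1 or lower were counted. The study's methods give these limits for genes, and they were applied here to peaks as well. Genes had to reach 25 reads and peaks 15 reads on the rlog scale in at least 1 library to count as expressed or as reaching the minimum. Members' counts or medians were set beside those over all features and over the other peaks within 5 Mb. Named were all members, each member's start peak and the peaks with its largest rise and fall, pathway genes that were expressed and past the limit in at least 1 line, and the 3 nearest genes by Euclidean distance; the broad intronic TGFBR2 peak and others so marked were added after values were seen. The scripts were tested on simulated data. Exon lengths and overlaps came from GENCODE 44, where 4 members (TGFBR2, SMAD3, SMAD7 and SKIL) have other ends than in the deposited table. All 24 chromosomes of the table were found in the hg38 reference, with 0 peaks past an end. Python 3.11.15, numpy 2.4.6, pandas 2.3.3 and matplotlib 3.10.9 were used. Alternatives were other limits, scalings, filters, distances and windows.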

Additional observations from a re-analysis of the deposited data

Results flagged for a closer look

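TGM2, which encodes a transglutaminase of the matrix and is a target gene in the pathway list, was singled out because its RNA moved past the limit in opposite directions in 2 resistant lines. Its rlog was 9.76 in naive cells against 12.19 (erCriz0), 10.00 (erAlec0) and 8.60 (erLor0), a change of 2.43, 0.23 and -1.16. The difference between the lines was not tested, since each has 1 library.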

How the results depend on the processing

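Of 216 values recomputed under other settings, 167 stayed within 0.1 on the log2 scale or, for counts, within 1.5 times. None of the members' 2 RNA calls was lost by centring or quantile normalization. The limit moved counts most. With a limit of 1.5-fold, 2 members were up in erCriz0 and 2 up and 1 down in erAlec0; in the pathway list erCriz0 had 14 up and 15 down, erAlec0 20 and 7, and erLor0 17 up; and among member peaks erCriz0 had 17 up and 29 down, erAlec0 32 and 45, and erLor0 17 and 47. With a limit of 2, 0 members were up or down in erCriz0; in the pathway list erCriz0 had 4 up and 0 down, erAlec0 1 and 1, and erLor0 0 and 1; and 0 member peaks were called in erCriz0 and erLor0, with 1 up and 0 down in erAlec0. Keeping only peaks paired with 1 gene, which leaves 44, gave 0 down in erCriz0, 9 up and 5 down in erAlec0 with a median of 0.27 in place of -0.38, and 4 up and 5 down in erLor0 with a median of -0.27. This removes every SMAD3 peak and keeps most TGFB2 peaks. Keeping only peaks at the minimum moved the erCriz0 median to -0.14, and centring on the median of all peaks left 1 down in erCriz0 and moved the erLor0 median to -0.30. Quantile normalization moved the members' erAlec0 RNA median to 0.017. No library could be left out, and no paired analysis was possible because each line has 1 library. Depth is unknown, and rlog understates changes of TGFB2, INHBA and other weak features.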

Other observations

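Start peaks of several other pathway genes changed in erAlec0 by more than those of the members, whose highest change there was 1.47. The start peak of LTBP1, whose RNA rose in erCriz0 and erAlec0, changed by 1.17 (erCriz0), 1.95 (erAlec0) and 2.08 (erLor0), while the median of its 27 paired peaks in erAlec0 was -0.97. The start peak of COL4A1 changed by 0.86, 2.20 and 1.92, and its RNA by -0.23, 1.48 and 0.45. That of FST changed by 0.69, 1.61 and 1.47, whereas its RNA was highest in erCriz0. That of BAMBI, which encodes a decoy receptor, changed by 1.77 in erAlec0, where its RNA changed by -0.42. These genes were chosen after their values were seen.

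Of the 6 BMP ligand genes of the list, 4 counted as expressed. In erCriz0 1 of the 6 had a higher value than naive cells, and 2 were down, BMP2 and BMP7. The higher gene, BMP5, was not expressed (0.28 in naive cells and 0.52 in erCriz0). Of all expressed genes, 47.9% were higher and 1.65% down in erCriz0. In the same line the 3 ID genes, ID1, ID2 and ID3, changed by -0.51, -1.22 and -1.30. NOG and GREM1, antagonists of BMP ligands, rose there by 2.39 and 2.13, from below the limit for expressed genes in naive cells. In erAlec0 BMP7 changed by -1.40, the only BMP ligand gene past the limit there, the ID genes changed by -0.05, -0.61 and 0.02, NOG changed by -0.45 and GREM1 rose by 1.89. In erLor0 0 of the BMP ligand and ID genes passed the limit, and NOG and GREM1 changed by -0.15 and 0.38. These groups were formed after the values had been seen, and no test of them was run.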
